A study of Mus musculus with 13 samples.

Results

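The regions described here are 12214 Sox9 peaks of mouse rib cartilage that had no counterpart in nasal cartilage. They were chosen by class, order in the list and position alone. A member had to be on the rib list that the submitters call Class II, to stand outside the first 10% of the whole rib list in the order deposited (hereafter later-listed), and to have no nasal Sox9 peak overlapping it or within 1 kb, edge to edge. They made up 44.2% of the 27656 rib peaks, 58.5% of the 20862 Class II peaks and 66.7% of the 18317 later-listed Class II peaks. The values that chose them were the class, the place in the list and the absence of a nasal peak, so none of these is a result. Against them stood 6103 later-listed Class II peaks with a nasal peak within 1 kb (the nasal-matched peaks), 402 rib-only Class II peaks from the first 10% of the list (the early-listed rib-only peaks), and 1212 later-listed rib-only Class I peaks.

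Both Sox9 libraries came from wild-type, untreated ICR mice and were made with the same antibody. The rib library was from enzymatically released rib chondrocytes at postnatal day 1 and the nasal library from nasal septum chondrocytes at embryonic day 17.5. Each tissue had 1 Sox9 library, so stage and tissue differ together, and how many animals gave the cells was not stated in the labels. The series holds 13 libraries in all, and values of the other 11 (histone marks, p300, RNA polymerase II, inputs and IgG) were not used here, which leaves these peaks without a background of the same kind. The peak lists carry positions without height or significance, so read depth and peak strength are unknown, and no marker gene could be read to check the cell type.

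Sox9 is a transcription factor with an HMG-box DNA-binding domain that cartilage needs in order to form and to make its matrix of collagens and proteoglycans. It can bind as a dimer to paired sites that face each other, and cartilage matrix genes are among its known targets, with enhancers that can lie far from the gene. A ChIP-seq peak is a stretch of genome where fragments pulled down with the Sox9 antibody pile up above a background. Neither the basis of the split into Class I and Class II nor the meaning of the order of the lists is stated in the labels or the files. All positions are mm9, counted from 1. Gene annotation and sequence of that build were not used here, so no gene names or base sequences are given for these regions.

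The members took a rising share of the list from its start to its end. The rib list was cut into 10 equal bins by place. Bin 2 held 900 members, or 32.5% of its peaks, and bin 5 held 1370, or 49.5%. The count reached 1529 in bin 9, or 55.3%, and was 1466 in bin 10, or 53.0%. Among the Class II peaks of a bin, members were 38.1% in bin 2, 67.4% in bin 5 and 83.8% in bin 10. The median place of the members was 16467.5, against 9904 for the nasal-matched peaks and 21063.5 for the later-listed rib-only Class I peaks. The rule asks for the absence of a nasal peak alike in every bin. Place and the absence of a nasal peak both chose the members, so the rise is a description and no result. Its cause was not tested.

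**Figure D1:**
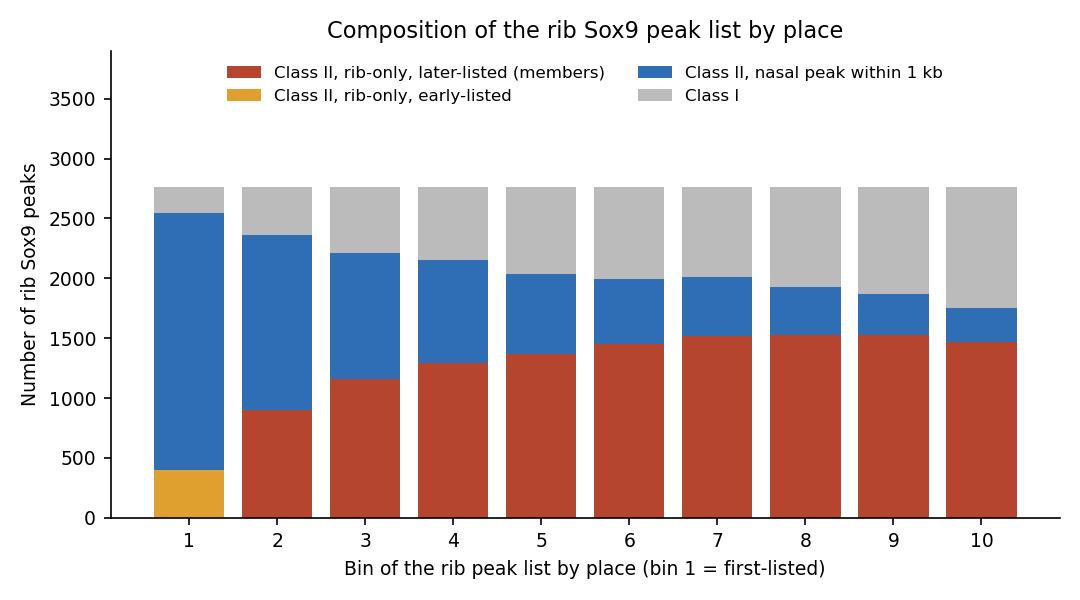
Number of rib Sox9 peaks (vertical axis) in each of 10 equal bins of the rib list by place (horizontal axis), stacked by class and by whether a nasal peak lay within 1 kb. Members rise from 900 peaks in bin 2 to 1529 in bin 9.

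The cuts of the rule did not fall at a visible step in the lists. The last 100 lines of bin 1 held 23 rib-only Class II peaks and the first 100 lines of bin 2 held 28. The gap to the nearest nasal peak was within the last 100 bp below the limit of 1 kb for 60 later-listed Class II peaks, which were left out, and within the first 100 bp above it for 59, which were members. Of the nasal-matched peaks, 5105 shared bases with a nasal peak and 998 lay within 1 kb without a shared base. The first member, at line 2769, was a peak of 202 bp on chromosome 3, 59928385 to 59928586, with its nearest rib peak 6.41 kb away and its nearest nasal peak 168 kb away. The last, at line 27655, was a peak of 151 bp on chromosome 2, 35253133 to 35253283, 60.3 kb from any rib peak and 60.6 kb from any nasal peak.

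Members had a median width of 183 bp, with quartiles of 139 and 235 bp and a range of 4 to 498 bp. The median was 180 bp in the nasal-matched peaks, 181 bp in the early-listed rib-only peaks and 174 bp in the later-listed rib-only Class I peaks. Widths spread more towards the end of the list. The SD over members was 66.7 bp in bin 2 and 89.0 bp in bin 10, and peaks wider than 300 bp rose from 4.89% to 13.5% of members between those bins. The nasal-matched peaks showed a like spread, with an SD of 74.0 bp in bin 2 and 92.7 bp in bin 10. The early-listed rib-only peaks were the most even, as 3.98% were under 100 bp and 3.98% over 300 bp, against 10.7% and 8.94% of the members.

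Nasal Sox9 peaks lay at similar distances from members all along the rib list. The median gap from a member to the nearest nasal peak was 27.1 kb, with quartiles of 9.39 and 74.5 kb. A nasal peak stood within 5 kb of 14.4% of members (95% exact binomial interval 13.8% to 15%), within 10 kb of 26.3% (25.5% to 27.1%) and within 100 kb of 80.7% (80.0% to 81.4%). Intervals here cover counting error alone, and as neighbouring peaks are not independent they are too narrow. By bin, the share within 10 kb lay between 25% in bin 3 and 27.3% in bin 2, and was 26.5% in bin 10. The median gap was 27.1 kb for members in the first 50% of the rib list and 27.2 kb for those in the second 50%. The bins thus differed by at most 2.33 percentage points, and all their intervals shared the range from 24.8% to 27.6%.

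**Figure D2:**
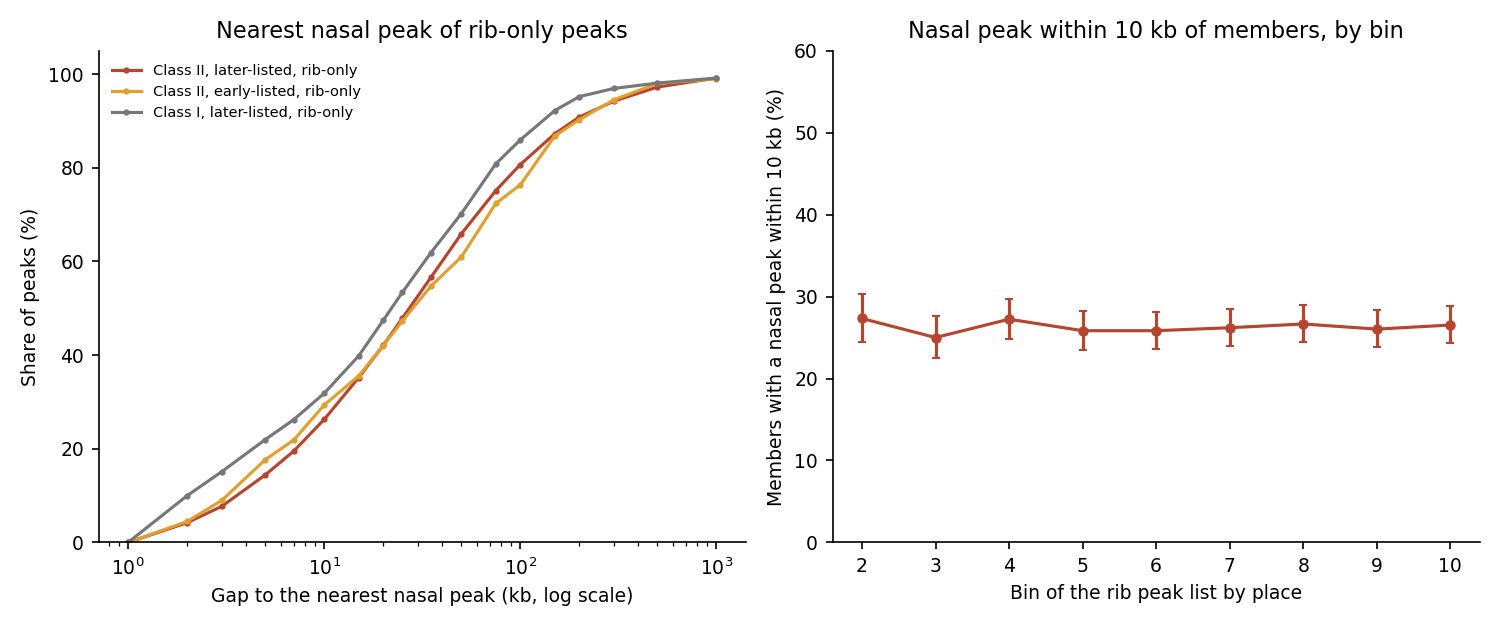
Left, cumulative share of rib-only peaks (%) against the gap to the nearest nasal peak (kb, log scale) for members, early-listed rib-only Class II and later-listed rib-only Class I peaks, which start at 0 at 1 kb by the rule. Right, share of members with a nasal peak within 10 kb in bins 2 to 10 of the list, with 95% exact binomial intervals, which stays between 25% and 27.3%.

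Over the whole list, rib-only Class I peaks had a nasal peak within 10 kb more often than members, but not in its last bin. A nasal peak lay within 5 kb of 21.9% (19.7% to 24.4%) of the later-listed rib-only Class I peaks and within 10 kb of 31.8% (29.2% to 34.6%), with a median gap of 22.2 kb. In bin 2 the share within 10 kb was 42.9% of 21 such Class I peaks, and in bin 10 it was 25.7% (20.9% to 31.0%) of 307, against 26.5% (24.3% to 28.9%) of the members there. The early-listed rib-only peaks had a median gap of 29.7 kb and a share of 29.4% (24.9% to 34.1%) within 10 kb, an interval that reaches below that of the members. Nasal peaks near members were mostly ones that had a rib peak of their own. Where the nearest nasal peak stood 1 to 10 kb from a member, a rib peak lay within 1 kb of it in 84.8% of 3209 cases (83.5% to 86.1%), against 78.1% (77.5% to 78.7%) of all nasal peaks. Where it stood over 10 kb away the share was 77.1%. A nasal peak with a rib peak nearby also brings that rib peak close to the member, so these counts and those on rib neighbours are linked.

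Members without a close neighbour were the larger group, 52.4% of them. Another rib peak of either class lay within 10 kb of 47.6% of members (46.7% to 48.5%), and the other 6397 had none. The median gap to the nearest other rib peak was 11.1 kb, with quartiles of 3.33 and 33.7 kb, and 1014 members, or 8.30%, had no rib peak within 100 kb. The nasal-matched peaks had a median gap of 5.87 kb and a share of 59.9% (58.6% to 61.1%) within 10 kb. Members were below them on 20 of 20 chromosomes and in 9 of 9 bins of the list, counts that include neighbours near enough for the rule to take part. The early-listed rib-only peaks stood between, at 57.2% (52.2% to 62.1%), whereas the later-listed rib-only Class I peaks had 48.8% (45.9% to 51.6%) over the whole list. By bin these Class I peaks were above members in bins 2 to 8 and below them in bins 9 and 10. Their share was 90.5% of 21 in bin 2 and 41.4% of 307 in bin 10, against 53.0% and 43.4% of members. With 1 library per tissue no test over samples was possible, and peaks were not used as replicates.

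Most of the difference between members and nasal-matched peaks came with rib neighbours close enough for the rule itself to take part. A single nasal peak lying between 2 rib peaks can make both nasal-matched, and with the limit of 1 kb on either side and the widest nasal peak this reaches 2.50 kb. The difference in the share with a rib neighbour within 10 kb was 12.2 percentage points. It was 4.43 points (95% Wald interval 2.71 to 6.15) when peaks with a rib peak within 1 kb were left out of both groups, where the shares were 41.5% of members and 45.9% of nasal-matched peaks, and members were below on 19 of 20 chromosomes. With peaks that had a rib peak within 3 kb left out it was 2.62 points (0.824 to 4.41), from 31.8% of members and 34.4% of nasal-matched peaks. Had only shared bases counted as a nasal match, the difference would have been 3.68 points, and with a nasal gap of up to 5 kb it would have been 27.3 points.

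The share of members with a rib neighbour fell along the list. In bin 2, 53.0% of members (49.7% to 56.3%) had a rib peak within 10 kb, and in bin 10 43.4% (40.8% to 46.0%). Without the peaks that had a rib peak within 3 kb, the share of members went from 35.9% (32.2% to 39.7%) to 27.3% (24.7% to 29.9%). Counting all neighbours, the nasal-matched peaks went from 58.2% (55.6% to 60.7%) to 64.4% (58.6% to 70.0%), while their number fell from 1464 in bin 2 to 284 in bin 10. That higher share at the end of the list did not remain without close neighbours. With peaks that had a rib peak within 1 kb left out, 48.7% (45.8% to 51.6%) of nasal-matched peaks had a rib neighbour in bin 2 and 40.2% (32.8% to 48.0%) in bin 10.

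The difference between the groups by bin changed in the same way. Counting all neighbours it was 5.20 points in bin 2 and 21.1 points in bin 10. With peaks that had a rib peak within 1 kb left out it was 1.18 points in bin 2 and 3.21 points in bin 10, and over the bins it ran from -1.49 to 5.91 points, with members lower in 8 of 9 bins. With the limit at 3 kb it ran from -3.29 to 5.12 points, and members were lower in 6 of 9 bins. In each of these bins the intervals of the groups overlapped.

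**Figure D3:**
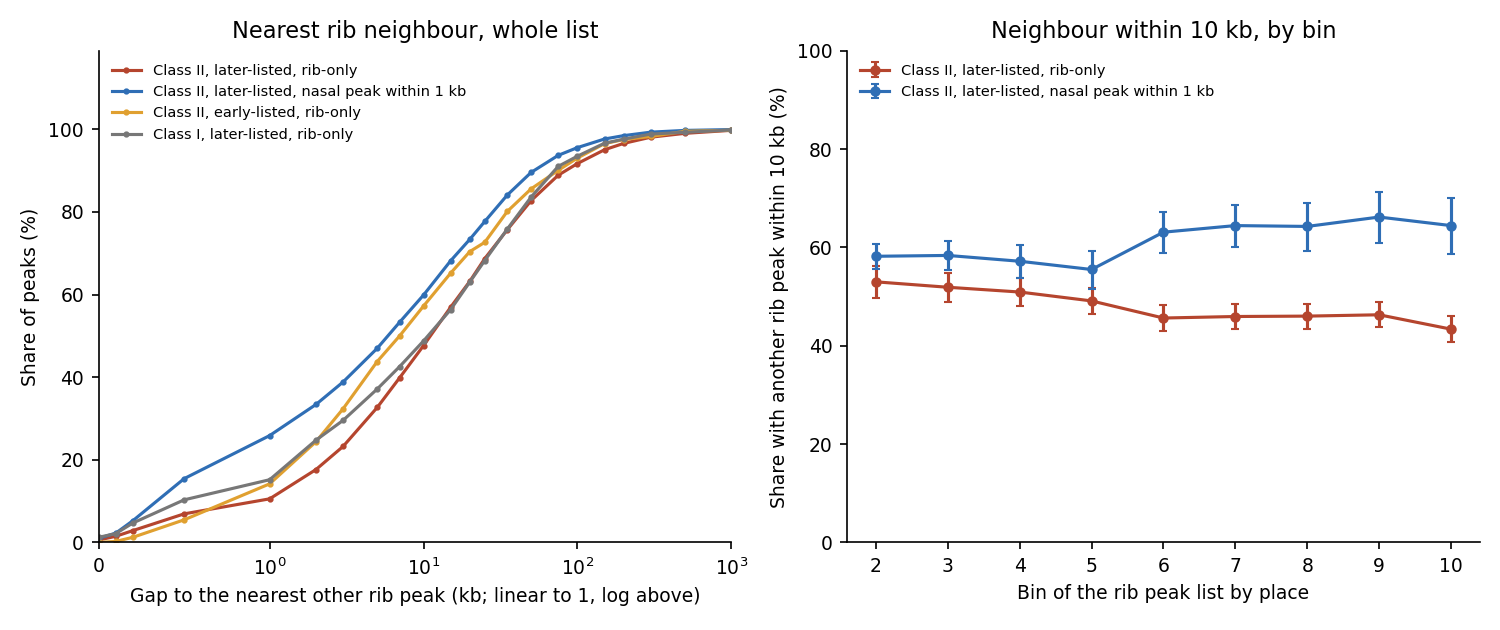
Left, cumulative share of peaks (%) against the gap to the nearest other rib peak (kb, linear up to 1 and log above) for members and 3 comparison groups of rib peaks. Right, share with another rib peak within 10 kb in bins 2 to 10, with 95% exact binomial intervals. All gaps count here, those within 1 kb included. Members fall from 53.0% to 43.4% and nasal-matched peaks lie above them in each bin.

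Most near neighbours of members were other members. For 55.2% of members the nearest rib peak at any distance was a member, counting neighbours within 1 kb, where the rule takes part. Members were 44.2% of all rib peaks, Class I included, and 58.5% of the Class II peaks. Class I peaks with a nasal peak within 1 kb made up 20.1% of all rib peaks. They were the nearest rib peak of 11.5% of members and of 11.5% of nasal-matched peaks. Among nearest peaks over 1 kb and up to 10 kb away, members were 51.1% (49.7% to 52.6%), nasal-matched peaks 22.8% (22.07% being their share of all rib peaks), early-listed Class II peaks with a nasal counterpart 12% (7.75% of all) and nasal-matched Class I peaks 9.14%. Nearest peaks of the nasal-matched Class II group over the same distances were members in 43.6% (41.5% to 45.8%) of cases. Beyond the reach of the rule, over 3 kb and up to 10 kb, the nearest peak was a member for 50.4% (48.6% to 52.2%) of members and 46.3% (43.6% to 49.1%) of nasal-matched peaks, intervals that overlap.

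Less than 10% of members had a Class I peak within 10 kb, and the same held for early-listed Class II peaks. The latter are also a small part of the list. Where the nearest rib peak lay within 10 kb, it was an early-listed Class II peak with a nasal counterpart for 9.35% of members (7.75% of all rib peaks). It was an early-listed rib-only peak for 2.39% (1.45% of all). Of the members, 6.93% had a Class I peak within 10 kb (6.48% to 7.39%), and the median gap to one was 115 kb. The share was 10.3% (9.59% to 11.1%) for nasal-matched peaks, with a median gap of 87.0 kb, and 5.22% (3.26% to 7.88%) for the early-listed rib-only peaks. Early-listed Class II peaks were within 10 kb of 9.84% of members (9.32% to 10.4%) and of 15.4% (14.5% to 16.3%) of nasal-matched peaks, counting neighbours within 1 kb. With the nearest early-listed Class II peak over 1 kb and up to 10 kb away, the shares were 9.42% (8.90% to 9.95%) and 9.95% (9.21% to 10.7%). For Class I peaks over those distances they were 6.68% (6.24% to 7.14%) and 8.54% (7.85% to 9.27%). Both pairs are shares of all peaks in each group, so peaks with a nearer neighbour of that kind could not count. An early-listed Class II peak lay within 1 kb of 0.426% of members and 5.44% of nasal-matched peaks. The 1202 members with an early-listed Class II peak within 10 kb, neighbours within 1 kb included, had a median place of 15192. It was 16467.5 for all members. A rib peak with a nasal counterpart lay within 10 kb of 23.0% of members and of 46.2% of nasal-matched peaks, and the latter share includes neighbours within 1 kb. Counts were also made with the nearest such peak over 1 kb and up to 10 kb away. The shares were then 22.65% (21.9% to 23.4%) of members and 20.5% (19.5% to 21.6%) of nasal-matched peaks. Over 3 kb and up to 10 kb they were 16.15% (15.5% to 16.8%) and 12.9% (12.1% to 13.8%). Peaks with a nearer such peak stayed in the totals of both groups but could not count. Within 1 kb these were 25.6% of nasal-matched peaks and 0.368% of members. The calculation thus lowers the share of nasal-matched peaks more, and the order of the groups is not a result.

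Some members stood at very short range from another member, and their places in the list were no nearer to each other for it. Another member stood within 1 kb of 1174 members, or 9.61%, at a median gap of 345 bp, and within 0.2 kb of 341. A further 481 had their nearest member over 1 kb and up to 2 kb away, and 381 over 2 kb and up to 3 kb. Such closeness was not more common in members than in the comparison groups. A rib peak of either class lay within 1 kb of 10.55% of members (10.01% to 11.1%) and 25.86% of nasal-matched peaks. The share was 14.18% (10.92% to 17.98%) for early-listed rib-only peaks and 15.18% for later-listed rib-only Class I peaks. Neighbours this close are near enough for the rule itself to take part. Splitting of 1 enrichment into several listed peaks was not tested. Among members whose nearest rib peak was a member up to 1 kb away, the median difference in place was 7032 lines. It was 6691 lines at 1 to 10 kb, 6793 at 10 to 100 kb and 6289.5 beyond 100 kb.

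Members also took part in chains of rib peaks spaced at most 10 kb apart. Chains of at least 5 rib peaks held 1022 members, or 8.37% (7.88% to 8.87%) of them, against 13.3% (12.4% to 14.2%) of nasal-matched peaks, again counting neighbours within 1 kb. In all, 2880 of the 27656 rib peaks stood in these chains. Of those 2880, 1022 were members, a smaller part than the 44.2% that members made of all rib peaks. At least 1 member lay in 377 of the 447 such chains, and 243 chains held both a member and an early-listed Class II peak. With at least 5 peaks in a chain, most chains can hold a member on composition alone. Within these chains, members were the first or last peak in 33.6% of cases (30.7% to 36.5%) and nasal-matched peaks in 30.5% (27.3% to 33.7%), intervals that overlap. Chains of members alone, with no other rib peak within 10 kb of them, numbered 1098 and held 2432 members. Of these chains 183 had at least 3 peaks, 39 at least 4 and 11 at least 5, and the longest had 6.

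The chains of 6 members alone show how such groups were laid out. On chromosome 17 they lay between 5795985 and 5806243, a span of 10.3 kb, at places 3838 to 14794 of the list and with gaps of 0.397 to 3.00 kb. The nearest nasal peak was 25.2 kb away. On chromosome 9 a chain of 6 filled 27070082 to 27077955, or 7.87 kb, at places 4724 to 21675, with the nearest nasal peak 28.2 kb away. On chromosome 4 the chain ran from 119671221 to 119682554, or 11.3 kb, with gaps of 0.083 to 5.33 kb, and the nearest nasal peak stood 35.4 kb off. Its places ran from 4074 to 20578. Places within each of these chains thus lay far apart, all of them after the first 10% of the list. Wide differences in place were also found between nearest members at every distance given above.

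Across the autosomes the density of members varied less than that of Class I peaks. It ranged 1.49-fold, from 4.34 per Mb on chromosome 14 (95% exact Poisson interval 3.97 to 4.73) to 6.48 per Mb on chromosome 11 (6.03 to 6.95). Nasal-matched peaks ranged 1.83-fold, from 1.87 to 3.44 per Mb, and Class I peaks 2.85-fold, from 1.82 to 5.21 per Mb. The share of members among later-listed Class II peaks ran from 62.9% on chromosome 15 (59.5% to 66.2%) to 69.8% on chromosome 1 (67.4% to 72.2%), with 66.6% over the autosomes together.

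Chromosome X had few peaks of either list, members included, but a high rib-only share. Over a span of 160.6 Mb it held 292 rib peaks of all groups and 164 nasal peaks. Chromosome 3, with a span of 154.9 Mb, held 1579 and 944. Members on chromosome X numbered 146, or 0.909 per Mb (0.768 to 1.07), which was 0.180 (95% Poisson interval 0.152 to 0.212) of the autosomal density of 5.04 per Mb. The ratio was 0.379 (0.255 to 0.540) for later-listed rib-only Class I peaks, from 30 peaks. For early-listed rib-only peaks it was 0.150 (0.0408 to 0.384), from 4. For nasal-matched peaks the ratio was 0.0984 (0.0703 to 0.134), from 40 peaks. Members were thus 78.5% (71.9% to 84.2%) of the later-listed Class II peaks on chromosome X, 11.9 points above the autosomes. The difference averaged 11.3 points within bins 2 to 10, but each of these bins held between 13 and 28 such peaks on chromosome X, and it was negative in bins 8 and 10, at -4.13 and -2.85 points.

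**Figure D4:**
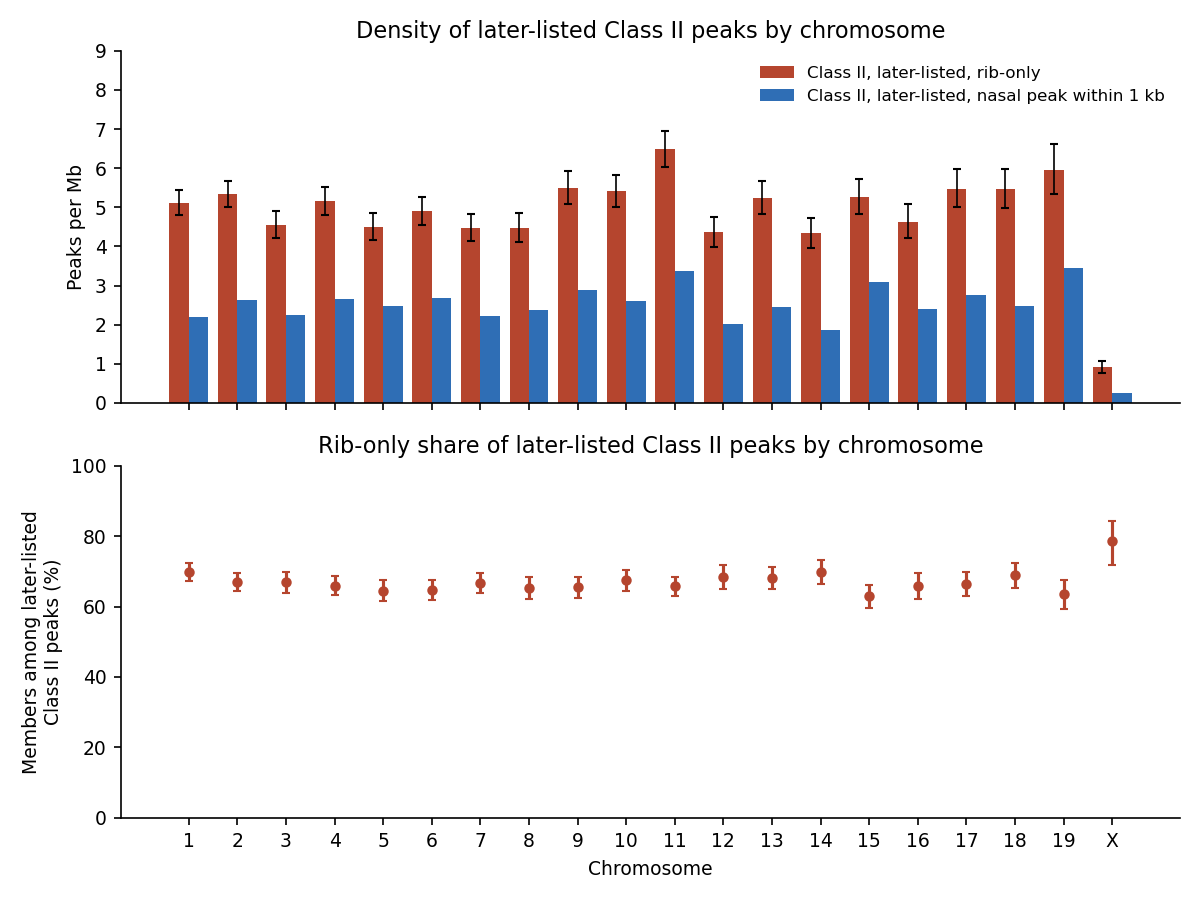
Top, later-listed Class II peaks per Mb by chromosome, with bars for members (95% exact Poisson intervals) and nasal-matched peaks. Bottom, members as a share (%) of later-listed Class II peaks, with 95% exact binomial intervals. Chromosome X has 0.909 members per Mb and a share of 78.5%, while the autosomes lie between 62.9% and 69.8%.

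On fixed windows of 100 kb, members occupied 7104 windows. Of these, 4197 held a single member, 2678 held 2 to 4 and 229 held at least 5. No nasal peak lay in 2957 windows with a member, or 41.6%, and these held 4316 members. No other rib peak than members lay in 3228 windows, or 45.4%. Windows with more members also held nasal and early-listed peaks more often. A nasal peak lay in 50.7% of the windows with 1 member, 64.4% of those with 2, 72.5% of those with 3, 78.0% of those with 4 and 83.8% of those with at least 5. For early-listed Class II peaks the share rose from 12.6% to 54.6%, whereas for Class I peaks it was 25% with 1 member and 28.4% with at least 5. So 37 of the 229 windows with at least 5 members were free of nasal peaks.

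The windows with the most members were of different make-up. First came chromosome 15, 97800001 to 97900000 (window A), with 12 members among 37 rib peaks and beside 16 nasal peaks. Its members stood at places 4648 to 26329 and spanned 64.7 kb. On chromosome 4, 119600001 to 119700000 (window B) held 11 members among 13 rib peaks and 2 nasal peaks, and included the chain of 6 members described above. The other window on chromosome 4, 62900001 to 63000000 (window C), held 11 members among 15 rib peaks, beside 5 nasal peaks. On chromosome 17, 45900001 to 46000000 (window E) held 10 members among 17 rib peaks, of which 2 were early-listed Class II, and 8 nasal peaks. Windows B, C and E held no Class I peak, whereas window A held 10.

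Window D, on chromosome 15 at 96700001 to 96800000, was made of members alone. It held 10 members, no other rib peak and no nasal peak, and ended 1 Mb before window A. Its members ran from 96709261 to 96767460, a span of 58.2 kb. The earliest-listed was the peak at 96709261 to 96709479, at line 3415, and the next was at 96756819 to 96756990, at line 4402. The narrowest, 37 bp at 96763901 to 96763937, stood at line 9257, and the last in the list was at 96763127 to 96763347, at line 24325. The median place of the 10 was 9934, earlier than the median of 16467.5 over all members.

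The other leading windows without a nasal peak held 7 or 8 members. Chromosome 9, 27000001 to 27100000 (window F) held 8, of which 6 formed the chain named above and 2 lay near the start of the window. On chromosome 4, 144800001 to 144900000 (window G) held 8 members spread over 72.5 kb, at places 4240 to 26945. On chromosome 2, 117300001 to 117400000 (window H) held 7 members and 1 early-listed Class II peak, itself without a nasal counterpart in the window. On chromosome 8, 96800001 to 96900000 (window I) held 7 members over 85.0 kb. Class I peaks were found in none of the windows D, F, G, H and I.

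**Figure D5:**
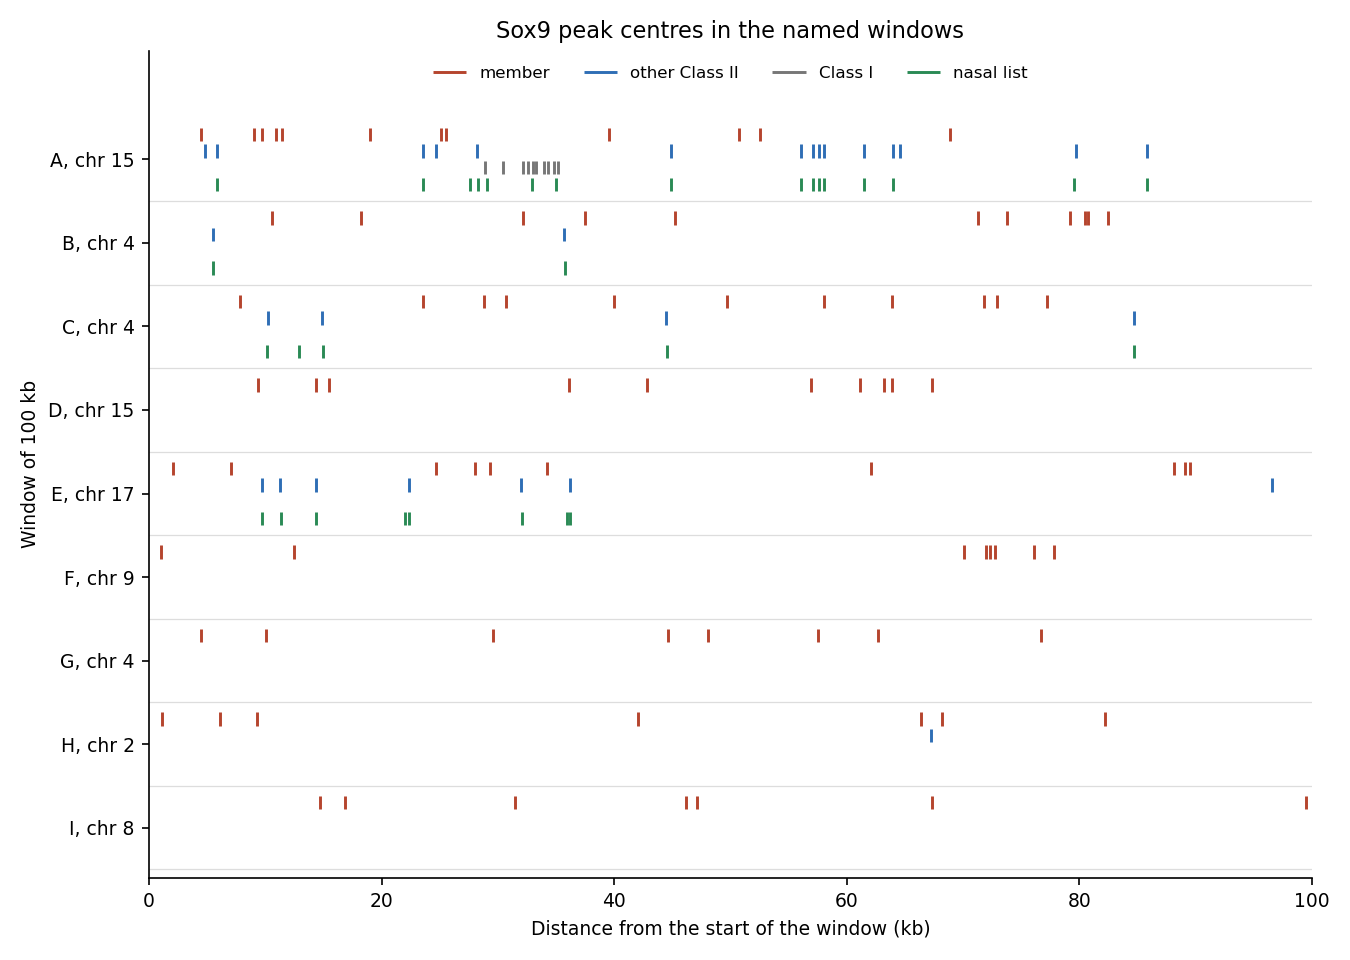
Centres of Sox9 peaks in the 9 named windows of 100 kb, as distance from the start of each window (kb), with 1 row of ticks each for members, other Class II peaks, Class I peaks and the nasal list. Windows A, B, C and E mix members with nasal peaks, and windows D, F, G, H and I hold no nasal peak.

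Single members at the extremes of the group show its range. Next after the first member came a peak of 231 bp on chromosome 8, 97734044 to 97734274, at line 2770, and a peak of 219 bp on chromosome 4, 101062852 to 101063070, at line 2773. Their nearest nasal peaks were 60.3 kb and 58.9 kb away. Of the last-listed members, that on chromosome 8, 12996768 to 12997011, at line 27654, had its nearest nasal peak 108 kb off, while that on chromosome 12, 87344875 to 87345173, at line 27653, had a rib peak at 2.96 kb and a nasal peak at 3.03 kb. Both near and far nasal peaks thus occurred among the last-listed members.

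Of the 3 widest members, 2 had another rib peak next to them. That on chromosome 11, 95187208 to 95187705, of 498 bp, shared bases with another rib peak. The member on chromosome 12, 59526853 to 59527350, also 498 bp wide, lay 0.128 kb from the next rib peak and 586 kb from the nearest nasal peak. The third, on chromosome 4, 130404196 to 130404692, measured 497 bp, with its nearest rib peak at 7.13 kb. Of all members, 72 shared bases with another rib peak.

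The most isolated autosomal member lay on chromosome 6 at 77339187 to 77339241, a peak of 55 bp at line 14469, with no rib peak and no nasal peak within 4021 kb. The next were on chromosome 17, 60224036 to 60224275, with the nearest rib peak 2504 kb away, and on chromosome 15, 20113016 to 20113209, at 2382 kb. These 3 stood at places 13526 to 15876, in the middle of the list. Members without a rib peak within 100 kb had a median place of 16747 and a median width of 187 bp, close to the 16467.5 and 183 bp of all members.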

How the data were processed

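ChIP-seq of Sox9 was analysed for 1 rib and 1 nasal library. Cells were fixed with 1% formaldehyde for 10 minutes, 20000000 cells went into each reaction with 9 μg of antibody, chromatin was sheared to 100 to 600 bp and libraries had 18 PCR cycles, per the labels' protocols. The authors deposited 4 lists of peaks as chromosome, start and end, without counts or scores, on mm9 per the submitters' processing notes. The aligner, caller and control for the peaks and the class definition remain not given in the sources used here. Each list stems from a single library, and 0 columns were left unused.

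Starts had 1 added. Gaps are edge to edge, and overlap means at least 1 shared bp. Shares carry 95% exact (Clopper-Pearson) and densities exact Poisson intervals, over the span covered by rib peaks. The members and comparison lists were chosen with earlier results of these data known. Named regions follow a rule: the 5 windows of 100 kb with the most members, the 5 with the most members and no nasal peak, the 3 first-listed, last-listed, widest and most isolated autosomal members, and the longest chains of members alone. Transcription start sites, gene lists, motifs and sequences, also planned, need an mm9 genome and were not run. Distances were tested on simulated data (5000 of 5000 planted gaps recovered) and differed from bedtools 2.31.1 for 0 of 27656 rib peaks. The software was pandas 2.3.3 and numpy 2.4.6 under Python 3.11.15, with scipy 1.17.1 for intervals and matplotlib 3.10.9 for figures.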

Additional observations from a re-analysis of the deposited data

How the results depend on the processing

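Of 52 alternative values, 25 stayed within the interval (for counts, within 1.5 times) of the value reported and 27 moved. Most of the values are counts, shares, widths, gaps or ratios, which cannot be negative. Only differences could change sign, and none of those counted here did. Differences in single bins, some of them negative as given above, are not among them. Nor is the difference between members and nasal-matched peaks in nearby rib peaks with a nasal counterpart. Shares within a distance cannot rise at 5 kb or fall at 25 and 50 kb, so their moves carry little information. Counting distance otherwise moved each neighbour share: at 5, 25 and 50 kb a rib peak lay near 32.7%, 68.7% and 82.7% of members, a rib peak with a nasal counterpart near 12.7%, 42.3% and 59.2%, an early-listed Class II peak near 5.57%, 18.6% and 27.6%, and a Class I peak near 3.24%, 16.6% and 28.4%. Early-listed Class II peaks over 3 kb and up to 10 kb away were near 6.74% of members. Members in the first 50% of the list had a rib peak within 10 kb in 51.0% of cases. With nasal matches set by shared bases alone or by gaps up to 500 bp, 26.3% and 24.8% of members had a rib peak with a nasal counterpart within 10 kb. The number of members ranged from 10455 to 13212 over the limits on nasal gap and place. Windows of 1 Mb held up to 33 members and 210 had no nasal peak. The alternatives on the difference between members and nasal-matched peaks, early-listed peaks over 1 or 3 kb away, the median nasal gap, chromosome X and windows with at least 5 members were added after the data were seen. Densities over mm9 chromosome lengths and the results that need a genome or annotation were not run. No paired analysis was possible because each tissue has 1 Sox9 library. Read depth is unknown, so how it limits the detection of nasal peaks near members was not tested.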
